A study of Mus musculus with 4 samples.

Results

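The genes described here are the heat shock protein and DnaJ chaperone genes of the mouse. They were chosen by name alone, as the rows of the gene count table annotated as protein coding whose symbol begins with Hspa, Hspb, Hspd, Hspe, Hsph, Hsp90 or Dnaj. There were 74 such genes among 54532 in the table, 29 of them with an Hsp symbol and 45 with a Dnaj symbol. Another 14 rows with matching symbols were processed pseudogenes and were not members. RNA was measured in alveolar macrophages (AMs), which live in the airspaces of the lung and clear them, in 2 control and 2 tumor libraries. All libraries came from WT female mice. The control mice carried no tumor, and the tumor mice had been inoculated 2 weeks earlier with 4T1 cells, a mammary carcinoma line able to spread to lung. The methods of the study give WT mice of BALB/c background aged 8 to 10 weeks, and injection of the 4T1 cells into the mammary fat pad. They do not say whether a library was 1 mouse or a pool, so the p-values measure the spread between these libraries, which may be technical.

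Molecular chaperones bind proteins that are not yet folded or have lost their fold. HSP70 proteins, encoded by the Hspa genes, hold short stretches of such chains in a cycle of ATP hydrolysis. DnaJ proteins start that cycle and bring the clients, and HSP110 proteins end it by exchanging the nucleotide. HSP90 proteins act later, on kinases and steroid receptors among others, with the help of co-chaperones. The cytosol, the endoplasmic reticulum (ER) and the mitochondria each hold their own HSP70, and many of the cytosolic genes are induced by the factor HSF1 when proteins unfold. HSF1 binds heat shock elements, in which units of the letters GAA and TTC alternate, and ER chaperone genes carry ER stress response elements instead.

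Promoter windows from RefSeq (GRCm38.p6, 250 bases before to 50 bases after each start) were matched by symbol to 60 of the 74 genes. The stretches below are shown because they hold the element in the genes on which the results turn, Dnaja1, Hsph1 and Dnajb4 among those that differed most, the twin genes Hspa1a and Hspa1b, the head-to-head pair Hspd1 and Hspe1, and the ER genes Hspa5 and Dnajc3. Each is written 5′ to 3′ on the strand of its gene, with the motif in capitals. The motifs were searched on both strands. Dnajb1 and Hspa2, also among the largest rises, have no stretch here, since their windows held no heat shock element of the forms searched.
Dnaja1, chr4:40722332-40722363, plus strand, head-to-head units: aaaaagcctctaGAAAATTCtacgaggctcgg
Hsph1, chr5:149636287-149636312, minus strand, 3 units: aaatgctgcagaTTCTGGAAAGTTCt
Dnajb4, chr3:152193840-152193871, minus strand, tail-to-tail units: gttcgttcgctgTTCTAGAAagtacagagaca
Hspa1a, chr17:34972241-34972272, minus strand, head-to-head units: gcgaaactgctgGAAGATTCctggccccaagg
Hspa1b, chr17:34959323-34959354, minus strand, head-to-head units: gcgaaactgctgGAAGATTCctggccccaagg
Hspe1, chr1:55088047-55088088, plus strand, 3 units matched at 2 overlapping places: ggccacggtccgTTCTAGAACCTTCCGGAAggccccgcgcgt
Hspa5, chr2:34772013-34772055, plus strand, ER stress response element: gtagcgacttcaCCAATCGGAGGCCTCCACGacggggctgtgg
Dnajc3, chr14:118937815-118937857, plus strand, ER stress response element: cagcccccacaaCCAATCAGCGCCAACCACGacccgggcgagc

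RefSeq gives several starts, and so several windows, for some of these genes. The motif begins 124 bases before 1 of the 3 starts of Dnaja1 and 14 bases before 1 of the 2 starts of Dnajb4, and the windows of their other starts do not hold it. It begins 36 bases after 1 start of Hsph1 and 15 bases after the other, and 104 bases before the single start of Hspa1a and of Hspa1b. The Hspe1 stretch is shared with Hspd1, which is transcribed from the other strand, and there the match begins 144 bases before 1 of the 2 starts of Hspd1, the window of the other start holding none. In Hspa5 the ER element begins 65 bases before the start and in Dnajc3 105 bases before it. The heat shock element of 3 units (GAA, 2 bases of any kind, TTC, 2 bases of any kind, GAA) was in 4 of the 60 genes (Hspd1, Hspe1, Hsph1 and Dnajb6, 6.67%), against 0.662% of the 27025 genes with a window and 0.603% of their 32851 windows. The head-to-head pair GAANNTTC, which is also contained in the motif of 3 units, was in 14 of the 60 (23.3%) and in 9.04% of all genes with a window. The tail-to-tail pair TTCNNGAA, likewise contained in it, was in 6 of the 60 and in 9.60% of all genes with a window, close to the same share. The ER element (CCAAT, 9 bases of any kind, CCACG) was in Hspa5, Dnajc3 and Hsp90b1 and in 0.137% of all genes with a window. These matches describe the letters of the windows and nothing more. No window was found by symbol for Hspa8, Hspa13, Hsp90aa1, Hsp90ab1, Dnajc2, Dnajc5, Dnajc11, Dnajc12, Dnajc22, Dnajc30, Dnajc5b, Dnajc18, Hspa9 and Hspb2.

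Total counts ranged from 16167147 to 19205737 per library, and the correlation of log2 CPM (counts scaled to a common library size) was 0.994 within the control pair, 0.992 within the tumor pair and 0.905 between groups. The cells had the defining genes of AMs, whose summed level over 14 genes was 16120 and 16260 CPM in the control and 12360 and 12500 CPM in the tumor libraries. Of the 14, 12 were called lower in tumor (24.8% of all genes) and 1, Ear1, higher (1.94-fold), with the fatty acid binding protein gene Fabp4 4.37-fold lower and Car4, Plet1 and Marco 1.99-, 1.901- and 1.87-fold lower. The tumor libraries also held transcripts of other cells. Summed neutrophil markers were at 10.2 and 10.5 CPM in control and 3926 and 3887 CPM in tumor libraries (10 of 10 genes called higher, where 29.0% of all genes were, Elane at 0 in controls), and eosinophil markers at 0.640 and 0.634 against 2669 and 2629 CPM (5 of 5). Basophil and mast cell markers went from 0.267 and 0.634 to 62.9 and 55.0 CPM (6 of 6), and liver markers from 0.0534 and 0.190 to 691.6 and 698.7 CPM (10 of 10, with 9 of them at 0 in both controls, Alb included). Erythroid markers were at 0.640 and 1.14 against 12.8 and 13.2 CPM (2 of 2 tested called higher). B and plasma cell markers were at 6.72 and 6.91 against 8.78 and 9.23 CPM (3 of 4 tested higher and 1, Jchain, lower). Ciliated cell markers were at 68.3 and 69.6 against 62.1 and 67.5 CPM, nearly all of it Tppp3, the 1 gene tested, which was not called, with the cilia factor Foxj1 at 12 counts or fewer. These levels move with the groups and so with every result below, and their part in the chaperone differences was not tested. In such bulk samples, fewer cells of a type and less RNA per cell cannot be told apart.

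In tumor AMs, single chaperone genes rose and fell within the same families, and their median stayed near 0. Where the higher group averaged 100 counts or more, the largest rises among called members were those of Dnaja1, Hsph1, Dnajb4, Hspa2 and Dnajb1, partners and members of the cytosolic HSP70 system, and the largest falls those of Dnajc27, Hspa4l and Dnajb5. Of the 74 genes, 63 passed the filter on low counts, and 31 of these (49.2%) were called by the edgeR quasi-likelihood test at an adjusted p under 0.05, where 53.8% of all 14256 genes tested were called. Higher in tumor were 13 (20.6%, against 29.0% of all genes) and lower 18 (28.6%, against 24.8%). The 13 include Dnajc6, which passed the filter by its tumor counts alone, and without it 12 of 62 (19.4%) were higher. Among them, 8 of 24 tested Hsp genes were higher and 5 lower, and 5 of 39 tested DnaJ genes were higher and 13 lower, or 3 and 8 without the first control library, where 23.5% and 20.1% of all genes were. Without Dnajc6 the DnaJ genes called higher were 4 of 38. The median log2 fold change of the tested members was -0.02 and that of all genes 0.02, and the median size of the change regardless of sign was 0.20 for members and 0.32 for all genes. A change of at least 1.5-fold was reached by 7 genes called higher (11.1%, against 17.4% of all genes) and 3 called lower (4.76%, against 7.92%), the 7 again including Dnajc6, without which they were 6 (9.68%). The CPM values of the groups did not overlap in 48 of 63 members (76.2%, against 75.1%), 24 in each direction, where 39.3% of all genes lay higher and 35.8% lower in tumor. Of the called members, 21 of 31 (67.7%) changed by less than 1.5-fold, as did 53.0% of all called genes.

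All directions here are relative to TMM scaling of the libraries. With unscaled total counts as library sizes, 20 members were called higher and 13 lower (31.7% and 20.6%, against 33.6% and 20% of all genes). With libraries scaled on the AM marker list, whose summed level was itself lower in tumor, 46 were higher and 2, Hspa4l and Dnajc27, lower (73.0% and 3.17%, against 65.9% and 6.10% of all genes). The latter choice moved the median of all genes from 0.02 to 0.46, so that on it falls under about that size turn into rises.

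**Figure D1:**
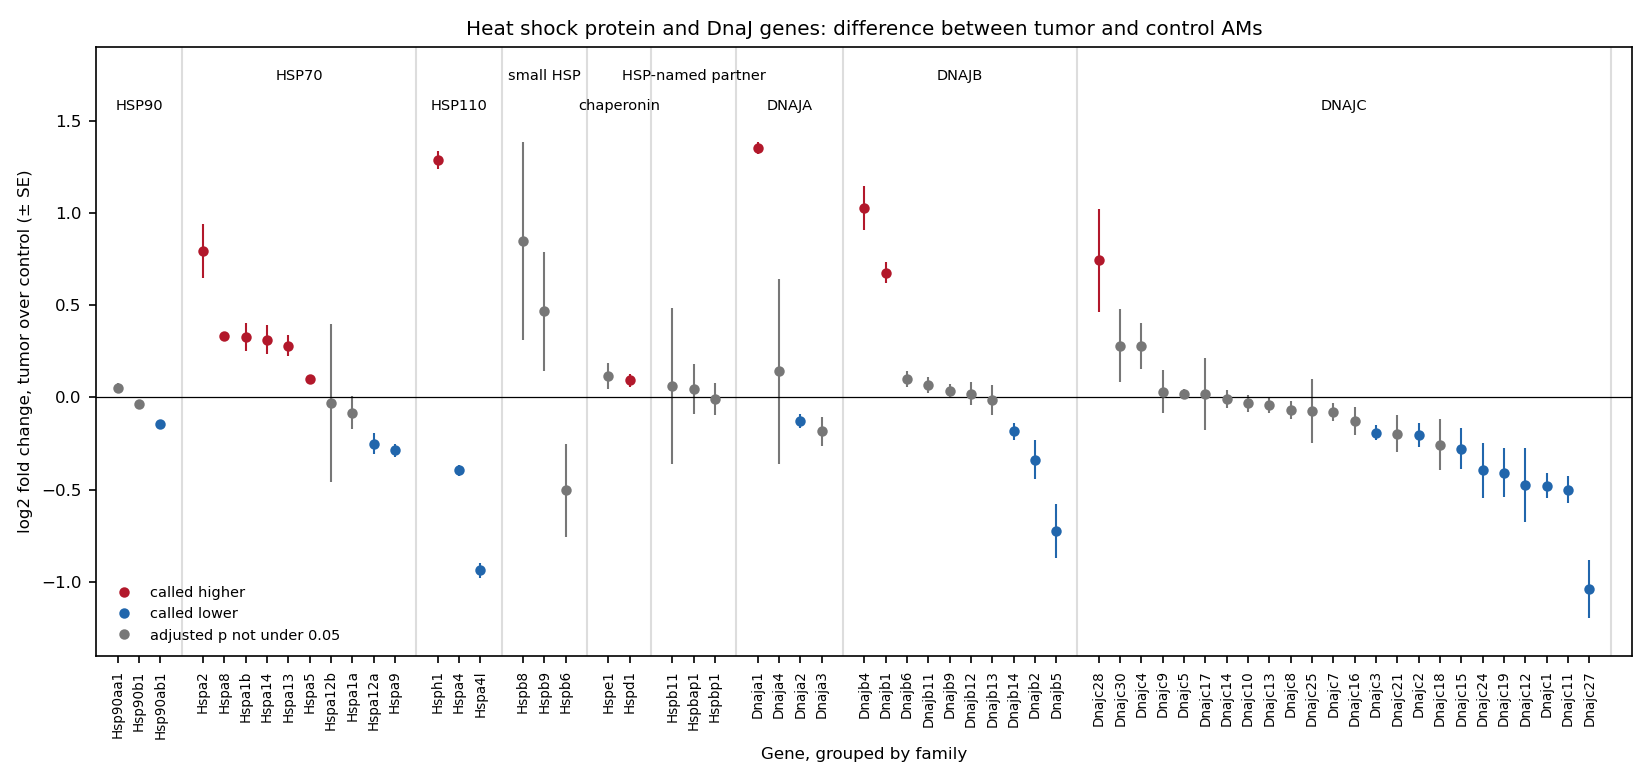
Log2 fold change of tumor over control with its standard error for 62 tested heat shock protein and DnaJ genes, grouped by family and ordered within it (Dnajc6, whose control libraries held at most 3 counts, is left out). Red points were called higher and blue points lower, and in each family but the small HSPs and the HSP-named partners at least 1 gene was called, with Dnaja1 at 1.35 the highest and Dnajc27 at -1.04 the lowest.

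The HSP70 genes were the family with most genes called higher, 6 of 10 tested (60%, against 29.0% of all genes) with 2 lower (20%, against 24.8%), although the sizes were small (median log2 fold change 0.19), and with scaling on the AM list neither Hspa9 nor Hspa12a was called lower. Hspa8 encodes the constitutive cytosolic HSP70, HSC70. It stood at 1744 and 1760 CPM in the control and 2230 and 2183 CPM in the tumor libraries, a log2 fold change of 0.33 ± 0.0176 (SE, n = 2 per group, edgeR adjusted p = 1.64e-15). Both tumor libraries lay above both controls, as in 39.3% of all genes. Hspa8 rose from 16.8% and 17.0% to 20.7% and 20.4% of the members' summed level per gene length.

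The stress-inducible twins Hspa1a (chr17:34969190-34972156, minus strand) and Hspa1b (chr17:34956436-34959238, minus strand) did not follow the same course. Hspa1b was at 30.5 and 30.5 CPM in control and 38.3 and 38.1 CPM in tumor AMs (log2 fold change 0.33 ± 0.0767, edgeR adjusted p = 7.00e-04). Hspa1a was at 29.0 and 25.7 CPM against 25.5 and 26.2 CPM, with overlapping groups and a log2 fold change of -0.08 ± 0.0892 (edgeR adjusted p = 0.454). Their longest reading frames are 99.4% identical and their promoter windows agree at 296 of 300 bases, so that the split of reads between them is uncertain. Summed over both genes, the log2 fold change was 0.15 ± 0.0588 (edgeR adjusted p = 0.0370). Hspa1l, next to Hspa1a, had at most 6 counts in any library.

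Hspa2, an HSP70 best known from male germ cells, changed most within the family. Its level was 7.58 and 6.21 CPM in control and 11.8 and 12.2 CPM in tumor AMs, without overlap, as in 75.1% of all genes. The log2 fold change of Hspa2 was 0.79 ± 0.147 (edgeR adjusted p = 4.35e-05). Hspa14, a ribosome-associated HSP70, and Hspa13, an HSP70-like protein of the ER and its vesicles, were also called higher, at log2 fold changes of 0.31 and 0.28. The atypical HSP70 gene Hspa12a was lower at -0.25, and Hspa12b, at about 1 CPM, was at -0.03 and not called.

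The HSP110 genes, the exchange factors of cytosolic HSP70, moved apart, although Hspa4 was at 0.04 with scaling on the AM list. Hsph1, which encodes HSP105, was at 56.3 and 53.4 CPM in control and 136.5 and 131.9 CPM in tumor AMs (2.44-fold, log2 fold change 1.29 ± 0.0489, edgeR adjusted p = 8.57e-19). Its 2 paralogs went the other way. Hspa4 was at 276.7 and 282.5 against 210.3 and 214.5 CPM (log2 fold change -0.40 ± 0.0313, edgeR adjusted p = 1.25e-11). Hspa4l was at 188.1 and 180.8 against 99.8 and 93.0 CPM (-0.94 ± 0.0419, edgeR adjusted p = 3.52e-17). Neither paralog overlapped between groups, as in 75.1% of all genes. The longest reading frames of the 3 genes are 62.6% to 67.1% identical, against 99.4% for the Hspa1 twins. Per gene length, the ratio of Hsph1 to Hspa4 went from 0.155 and 0.144 in control to 0.494 and 0.468 in tumor libraries, while that of Hspa4l to Hspa4 went from 0.319 and 0.300 to 0.223 and 0.203. The summed level of the family per length fell slightly, from 73.8 FPKM in either control to 65.3 and 64.8 FPKM in tumor libraries, a direction that turns with scaling on the AM list (FPKM here is CPM divided by gene length in kilobases).

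Among the DnaJ genes of class A, which carry the zinc-binding domain of bacterial DnaJ, 1 gene accounted for most of the change. Dnaja1 (chr4:40722150-40737149, plus strand) stood at 118.9 CPM in both control libraries and at 304.4 and 302.3 CPM in the tumor libraries. The log2 fold change was 1.35 ± 0.0338, or 2.55-fold, with an edgeR adjusted p of 4.71e-23. Dnaja1 had the largest rise of all members whose higher group averaged 100 counts or more. Its exons share 608 bases (7.05%) with Smu1 on the other strand, a gene with between 998 and 1216 counts in all libraries. Dnaja2, its cytosolic paralog, fell slightly, from 152.0 and 147.9 to 138.7 and 136.0 CPM (log2 fold change -0.13 ± 0.0384, edgeR adjusted p = 0.00613). Per length, the ratio of Dnaja1 to Dnaja2 rose from 0.270 and 0.277 to 0.757 and 0.767. That it stayed under 1 rests on the gene lengths in the table, 8629 bases for Dnaja1 and 2975 for Dnaja2. By CPM Dnaja1 lay above Dnaja2 in both tumor libraries, and their longest reading frames have 1194 and 1239 bases. Dnaja4 stayed under 1 CPM in all libraries.

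Class B genes, which lack that domain, showed the same mixture. Dnajb1, the HSP40 that works with HSP70 to dissolve aggregates, was at 50.2 and 52.7 CPM in control and 80.7 and 83.4 CPM in tumor AMs (log2 fold change 0.68 ± 0.0564, edgeR adjusted p = 3.98e-11). Dnajb4, its close relative, rose from 9.55 and 9.44 to 18.8 and 19.9 CPM (2.04-fold, log2 fold change 1.03 ± 0.119, edgeR adjusted p = 2.49e-08). Dnajb5, the third gene of this group, fell from 10.7 and 11.7 to 7.16 and 6.42 CPM (log2 fold change -0.72 ± 0.148, edgeR adjusted p = 1.46e-04), a call lost with scaling on the AM list (-0.28). The groups did not overlap for any of the 3 genes, as in 75.1% of all genes. The reading frame of Dnajb1 is 64.2% identical to that of Dnajb4 and 48.9% identical to that of Dnajb5. Dnajb2 and Dnajb14 were also called lower, at log2 fold changes of -0.34 and -0.18. Dnajb6, an inhibitor of aggregation and a holder of the heat shock element of 3 units, was at 105.6 and 104.9 against 114.7 and 111.1 CPM (log2 fold change 0.10, edgeR adjusted p = 0.0509). Dnajb13, a gene of cilia and sperm tails, had 30.9 to 33.0 CPM and was not called (log2 fold change -0.02), but its exons share 305 bases with Ucp2 on the other strand, which had 31769 to 38215 counts.

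**Figure D2:**
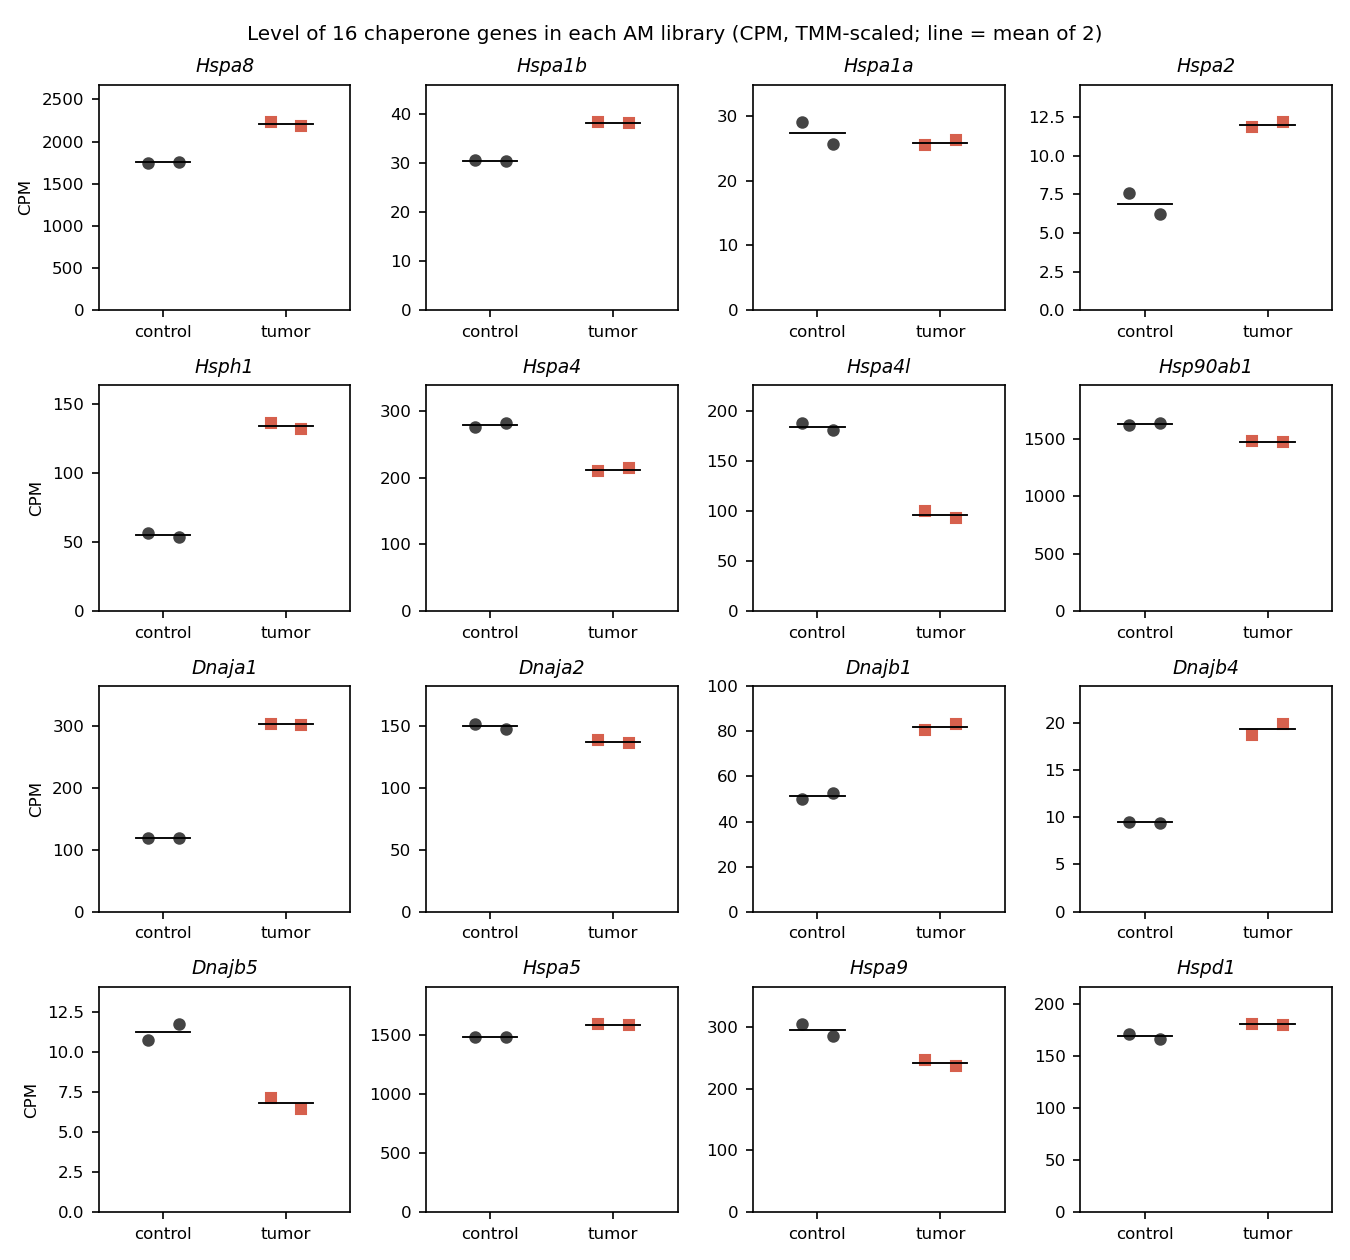
CPM (TMM-scaled, axis from 0) of 16 chaperone genes in each control library (circles) and tumor library (squares), with a line at the mean of the 2 libraries. Hsph1, Dnaja1, Dnajb1 and Dnajb4 lie well above their controls and Hspa4, Hspa4l and Dnajb5 below (Hspa4 not so with scaling on the AM list), while the Hspa1a values overlap.

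Differences in the HSP90 genes were small. Hsp90ab1, the constitutive cytosolic HSP90, was the most abundant member per gene length (517.0 FPKM on average over the 4 libraries). It was at 1618 and 1638 CPM in control and 1476 and 1470 CPM in tumor AMs, a log2 fold change of -0.14 ± 0.0181 (edgeR adjusted p = 1.13e-07). Its inducible paralog Hsp90aa1 was at 396.2 and 387.9 against 408.4 and 405.4 CPM (0.05 ± 0.0265, edgeR adjusted p = 0.0936). Hsp90b1, the HSP90 of the ER known as GRP94, was at 755.5 and 750.3 against 725.7 and 743.4 CPM (-0.04 ± 0.0223, edgeR adjusted p = 0.186). Values of the groups did not overlap for any of the 3, as in 75.1% of all genes, and the largest fitted difference, that of Hsp90ab1, was 1.105-fold. With scaling on the AM list Hsp90ab1 and Hsp90b1 turned to rises of 0.30 and 0.40. Hsp90aa1 was called higher with that scaling (0.49), with total counts as library sizes (0.12) and among genes with at least 10 counts in every library (0.08).

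Summed per gene length, the HSP90 genes gave 827.5 and 830.9 FPKM in control and 776.2 and 777.6 FPKM in tumor libraries, and the HSP70 genes 889.1 and 884.4 against 1019 and 1001 FPKM. The ratio of Hspa8 to Hsp90ab1 per length rose, whatever the scaling of the libraries, from 0.752 and 0.749 in control to 1.05 and 1.04 in tumor libraries. The order of these 2 genes thus changed per length, which rests on the gene lengths in the table (4301 bases for Hspa8 and 2999 for Hsp90ab1). By CPM Hspa8 already lay above Hsp90ab1 in both controls. All members together held 0.945% and 0.942% of counts in control and 1.03% and 1.03% in tumor libraries, and their summed level was 2414 FPKM in either control against 2506 and 2490 FPKM.

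**Figure D3:**
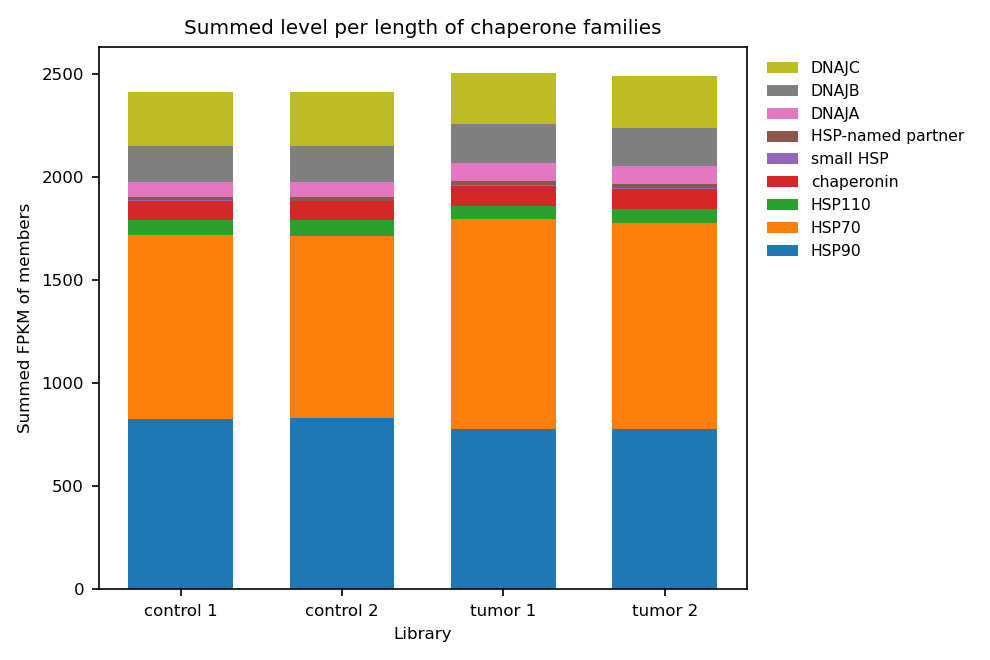
Summed FPKM of the members by family, stacked, in each of the 4 libraries. The HSP70 part grew from 889.1 and 884.4 to 1019 and 1001 FPKM and the HSP90 part shrank from 827.5 and 830.9 to 776.2 and 777.6 FPKM, the latter a fall that turns with scaling on the AM list.

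In the ER, 2 of 13 members were called higher (15.4%, against 29.0% of all genes) and 3 lower (23.1%, against 24.8%, median log2 fold change -0.04), and with scaling on the AM list none was called lower. Hspa5, the HSP70 of the ER known as BiP, was at 1481 and 1478 CPM in control and 1589 and 1583 CPM in tumor AMs. The difference was small and without overlap, as in 75.1% of all genes (log2 fold change 0.10 ± 0.0180, edgeR adjusted p = 2.93e-05). Dnajc3, or P58IPK, a BiP partner that also inhibits the kinase PERK, went down, from 216.9 and 197.9 to 183.8 and 180.4 CPM (-0.19 ± 0.0384, edgeR adjusted p = 1.25e-04). The 3 genes with an ER stress response element in their window were thus 1 called higher (Hspa5), 1 lower (Dnajc3) and 1 not called (Hsp90b1). Dnajb9, or ERdj4, stood at 159.6 and 156.2 against 163.2 and 160.8 CPM (0.04, edgeR adjusted p = 0.426). Dnajb11, or ERdj3, stood at 113.6 and 122.0 against 122.1 and 124.4 CPM (0.07, edgeR adjusted p = 0.200). Dnajc1, an ER membrane DnaJ that contacts ribosomes, showed the largest change of the compartment, from 65.5 and 58.7 to 44.2 and 45.0 CPM (-0.48 ± 0.0663, edgeR adjusted p = 5.74e-07). Its exons share 6.43% of their bases with Mllt10 on the other strand.

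Of the 9 mitochondrial members, all tested, 2 were called higher (22.2%, against 29.0% of all genes) and 4 lower (44.4%, against 24.8%, median -0.18), but with scaling on the AM list none of these 4 was called lower. Hspa9, or mortalin, the HSP70 of the matrix, was at 303.7 and 284.4 CPM in control and 246.8 and 235.8 CPM in tumor AMs (log2 fold change -0.29 ± 0.0339, edgeR adjusted p = 3.51e-08). Also lower were 3 DnaJ genes of the organelle. Dnajc11, a protein of the cristae-organising complex, was at 49.0 and 49.1 against 33.4 and 35.9 CPM (-0.50 ± 0.0718, edgeR adjusted p = 1.05e-06). Dnajc19 and Dnajc15, partners of the import motor, were at -0.41 and -0.28. Dnaja3, or TID1, the class A DnaJ of the matrix, was at 35.2 and 37.4 against 30.3 and 33.3 CPM (-0.18 ± 0.0800, edgeR adjusted p = 0.0537). Dnajc28, at under 3 CPM, was higher (0.74 ± 0.278, edgeR adjusted p = 0.0259).

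The chaperonin genes Hspd1 (HSP60) and Hspe1 (HSP10) lie head to head and share 112 exon bases on chromosome 1. Hspd1 was at 171.4 and 166.6 CPM in control and 180.5 and 180.3 CPM in tumor AMs (log2 fold change 0.09 ± 0.0354, edgeR adjusted p = 0.0279). Hspe1 was at 39.8 and 42.9 against 43.0 and 46.3 CPM (0.12 ± 0.0723, edgeR adjusted p = 0.186). The groups lay close together without overlap in both genes, as in 75.1% of all genes. The ratio of Hspd1 to Hspe1 per length was 2.40 and 2.17 in control and 2.34 and 2.17 in tumor libraries. The call of Hspd1 was lost whichever library was left out (edgeR adjusted p = 0.0666 to 0.373).

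Beyond the compartments, DNAJC genes, a class defined by the J domain alone, had 2 of 25 tested called higher, or 1 of 24 without Dnajc6 (8% and 4.17%, against 29.0% of all genes), and 9 lower (36%, against 24.8%, median -0.08), of which Dnajc27 alone stayed lower with scaling on the AM list. Dnajc27, a Rab-like GTPase with a J domain, fell most of the tested members, from 12.5 and 9.95 to 5.49 and 5.50 CPM (2.05-fold lower, log2 fold change -1.04 ± 0.160, edgeR adjusted p = 2.99e-06). Dnajc12, a co-chaperone of aromatic amino acid hydroxylases, was at 7.09 and 4.94 against 4.50 and 4.23 CPM. Its log2 fold change of -0.48 ± 0.201 (edgeR adjusted p = 0.0481) rests on the first control library and was -0.19 and not called without it, and the call was also lost without the second tumor library (-0.43). Dnajc24, for diphthamide synthesis, and Dnajc2, for ribosome-associated folding, were lower at -0.39 and -0.20. Dnajc6, or auxilin, the partner of HSC70 in removing clathrin coats in neurons, had 2 and 3 counts in control and 17 and 17 in tumor libraries. It passed the filter by its tumor counts alone, and the ratio of 34 to 5 counts scaled for library size was 6.36 (95% exact interval 2.47 to 20.8, counting error only). The ubiquitous Dnajc5, Dnajc7, Dnajc8, Dnajc10, Dnajc13 and Dnajc14 were not called, with log2 fold changes from -0.08 to 0.02.

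The small HSPs, which hold unfolding proteins without ATP, were near the detection limit. Hspb1, or HSP27, had 5, 8, 9 and 9 counts in the 4 libraries and was not tested. Hspb6, Hspb8 and Hspb9 were tested at under 4 CPM. Hspb6 had 62 and 51 counts in control and 42 and 43 in tumor libraries (log2 fold change -0.50, edgeR adjusted p = 0.0929). Hspb8, with 5 to 20 counts, was at 0.85 (edgeR adjusted p = 0.191). Counts never passed 3 in Hspb2, Hspb3, Dnajb7, Dnajb8, Dnajc5b and Dnajc5g, and Hspb2, Hspb3, Dnajc5b and Dnajc5g were at 0 throughout. For these, a floor of 3 counts allows a level of up to 0.153 to 0.190 CPM in a library, for counting error only. Hspb7, Dnajb3, Hspa1l and Dnajc22 also stayed untested, and Dnajc22 had 0 counts in both controls against 4 and 10 in tumor libraries, at least 1.22-fold higher. The genes named after HSP partners, Hspb11, Hspbp1 and Hspbap1, were not called.

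The matched promoters can be set beside these calls. The head-to-head pair of units was in 4 of 11 windowed genes called higher (Dnaja1, Hspa1b, Hspd1, Hsph1) and 1 of 13 called lower (Dnajc27). It was also in 6 of 28 not called and 3 of 8 untested (Dnajc5g, Hspb1, Hspb3), against 9.04% of all genes with a window. The tail-to-tail pair was in 3 (Dnajb4, Hspd1, Hsph1), 0, 3 and 0 of these, against 9.60%. The motif of 3 units was in 2 (Hspd1, Hsph1), 0, 2 and 0, against 0.662%. The windows of Dnajb1, Hspa2 and Hspa14, also called higher, held none of these motifs. The call of Hspd1 was unstable and the split of reads between Hspa1a and Hspa1b uncertain, as given above. A link between motif and call was not tested. Hspa1a, with the same stretch as Hspa1b, was among those not called.

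Among the heat shock factors and their binding protein, 0 of 4 tested genes were called higher and 2 lower (median -0.20), where 29.0% and 24.8% of all genes were. With scaling on the AM list 3 were higher and 0 lower, where 65.9% and 6.10% of all genes were. Hsf1 was at 932 and 714 counts in control and 726 and 794 in tumor libraries (log2 fold change -0.21 ± 0.0710, edgeR adjusted p = 0.0149), a call lost without the first control library (-0.15) and with total counts as library sizes (-0.14). Hsbp1, which binds HSF1 trimers, was at -0.18 ± 0.0551 (edgeR adjusted p = 0.00606), and its call was lost under the same alternatives. Hsf2 and Hsf4 were not called, and Hsf5 had at most 1 count.

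Of the co-chaperones of HSP90, 10 of 14 were called higher (71.4%, against 29.0% of all genes) and 2 lower (14.3%, against 24.8%), with a median log2 fold change of 0.23. The DESeq2 Wald test called 7 higher and 2 lower, where 13.5% and 11.6% of all genes were. With scaling on the AM list 13 were higher and 0 lower, where 65.9% and 6.10% of all genes were. Fewer genes of the list, and of all genes, were called higher without either control library or the first tumor library. Fkbp5, an immunophilin of steroid receptor complexes, was at 1316 and 1105 counts in control and 3262 and 3586 in tumor libraries (1.40 ± 0.0420, edgeR adjusted p = 3.39e-21). Fkbp5 thus rose 2.65-fold. Ahsa2, a homolog of the HSP90 ATPase activator, was at 0.65 ± 0.120 (edgeR adjusted p = 4.10e-05), and Ahsa1, the activator itself, at 0.36. Ptges3, or p23, which stabilizes the closed form of HSP90, was lower at -0.35 ± 0.0473 (edgeR adjusted p = 3.12e-07), as was the kinase co-chaperone Cdc37 at -0.16.

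HSP70 co-chaperones had 0 of 13 tested called higher (29.0% of all genes) and 5 lower (38.5%, against 24.8%, median -0.06, with Bag5 and Sil1 turning to rises with scaling on the AM list), led by the exchange factors Bag5 (-0.37 ± 0.0876, edgeR adjusted p = 7.80e-04) and Sil1 (-0.36 ± 0.0897, edgeR adjusted p = 0.00126). The cytosolic chaperonin CCT with prefoldin had 2 of 14 higher (14.3%, against 29.0%) and 3 lower (21.4%, against 24.8%, median -0.04), with Cct3 at -0.22 and Pfdn5 at 0.19, the latter not called without the second control library (0.11). Fewer genes of the list, and fewer of all genes, were called higher without that library or without the first tumor library. Mitochondrial proteostasis genes had 1 of 10 higher (10%, against 29.0%) and 3 lower (30%, against 24.8%, median -0.11), among them Trap1, the mitochondrial HSP90, at -0.26 and the protease subunit Clpp at -0.35. Without the first control library 1 gene of the list was called lower, Clpp no longer among them (20.1% of all genes), and without the second 0 were called higher. Other small HSP genes had 1 of 3 tested, Cryab at 0.40 (edgeR adjusted p = 0.227).

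Of the ER chaperones and genes of the unfolded protein response, 8 of 21 tested were called higher (38.1%, against 29.0% of all genes) and 6 lower (28.6%, against 24.8%), with a median of 0.03. Eif2ak3, which encodes PERK, the kinase that Dnajc3 inhibits, was at 772 and 596 counts in control and 1237 and 1367 in tumor libraries (0.83 ± 0.0641, edgeR adjusted p = 6.92e-12). Ppp1r15a, which reverses the phosphorylation PERK makes, was at 0.55 ± 0.0381 (edgeR adjusted p = 8.71e-13). The lectin chaperones Calr and Canx were lower at -0.41 and -0.26. With scaling on the AM list neither was called lower, since 19 genes of the list were higher and 0 lower (65.9% and 6.10% of all genes).

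Immediate early genes, which respond within minutes to stress or cell handling, moved with the groups in a list of 13. Of these, 12 were called higher (92.3%, against 29.0% of all genes) and 1 lower (7.69%, against 24.8%, median 0.69), with a summed level of 7080 and 7205 CPM in control and 10320 and 10470 CPM in tumor libraries. Ier3 was at 1.59 and Fos at 1.41 on the log2 scale, and Nr4a1 at -0.45. Their part in the rises of Dnaja1, Hsph1, Dnajb1 and Dnajb4 was not tested.

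**Figure D4:**
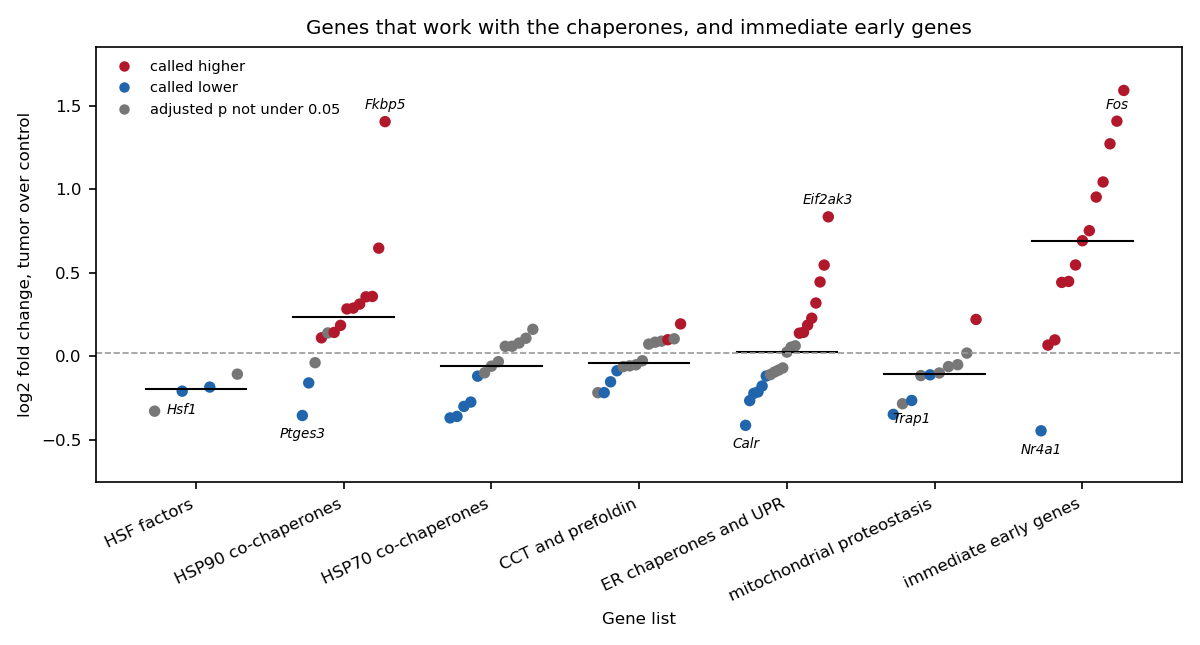
Log2 fold change of tumor over control for each tested gene of 7 lists that work with the chaperones or respond early to stress, with a bar at each list's median and a dashed line at the median of all genes (0.02). The HSP90 co-chaperones have a median of 0.23 with Fkbp5 at 1.40, the immediate early genes one of 0.69, and the other lists lie within 0.20 of 0.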

How the data were processed

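The authors purified AMs, extracted RNA with TRIzol, and made libraries with a NEBNext Ultra kit. By their methods, paired-end HiSeq reads were mapped with HISAT2 2.0.5, and featureCounts gave read counts for each gene. The deposited table holds these raw counts as whole numbers, and the FPKM of the authors were not used. Build, annotation, strandedness and the rule for reads that match several places are not given in the sources used here. Of 54409 gene identifiers found in GENCODE M21, 98.3% had the same coordinates, as had 71 of the 74 members, so coordinates are GRCm38.

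In R 4.3.3, genes were filtered with filterByExpr of edgeR 4.0.16 (minimum count 10) and libraries scaled by TMM (factors 0.977 to 1.02). Tumor was compared with control by glmQLFit and glmQLFTest with 2 residual degrees of freedom. P-values were adjusted by Benjamini-Hochberg across the 14256 genes that entered the test, and 0.05 was the limit for a call. The SE is the size of the fold change over the root of F. CPM used TMM-scaled library sizes, and FPKM was CPM per kilobase of the gene length in the table. Values of 3 counts or fewer were at the floor. The smallest exact permutation p for 2 against 2 libraries is 0.333, so no such test is given. The procedure was also run on simulated counts with a small set of changed genes, a common dispersion and no added cell types. Such counts lack the shift in composition seen here, so that run cannot speak to the scaling of these libraries. DESeq2 1.42.0, limma 3.58.1, other scalings and filters, and leaving out each library were alternatives. Libraries of a pair differed by more than sampling noise (chi-square per gene 1.81 in control and 2.30 in tumor).

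The members and lists were chosen with earlier results of these data known. Named were fixed members of each system, the 6 largest rises and falls among called members whose higher group averaged 100 counts or more, the 5 members of highest FPKM, Hsf1 and Ptges3, and the 2 called genes of largest change in each list (same count limit). A further gene of the rule is not reported here. Other genes were named to account for every family, after their values were seen. Reads of paralogs, and of genes that overlap on either strand, may be split or shared. Promoter windows were searched with Python 3.11.15.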

Additional observations from a re-analysis of the deposited data

How the results depend on the processing

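The rises of Dnaja1, Hsph1, Dnajb4, Hspa2, Dnajb1 and Hspa8 and the falls of Hspa4l and Dnajc27 kept their direction and an edgeR, DESeq2 or limma adjusted p under 0.05 under every alternative scaling, filter, test and left-out library. The 1.5-fold limit left out Hspa8, at 1.26-fold. The counts of calls depended on scaling. With total counts as library sizes 20 members were called higher (DnaJ genes 10) and 13 lower (DnaJ genes 8), against 33.6% and 20% of all genes, 13 genes of the pathway lists were lower (Hsf1 and Hsbp1 no longer among them), the median of the members was 0.0517 with that of all genes at 0.0849, and Hsp90b1 turned to 0.0312. With scaling on the AM list, 46 members were higher and 2 lower (Hsp genes 19 and 1, DnaJ genes 27 and 1), against 65.9% and 6.10% of all genes, 78 list genes were higher and 0 lower, and the members' median was 0.42 with all genes at 0.46. On that scale falls became rises for Hsp90b1 (0.40), Hsp90ab1 (0.30), Hspa1a (0.36), Hspa9 (0.15), Hspa4 (0.0438), Dnaja3 (0.25), Dnajc3 (0.25), Hsf1 (0.23), Ptges3 (0.0861), Hsbp1 (0.26), Bag5 (0.0716), Sil1 (0.0802), Cct3 (0.22), Clpp (0.0921) and Trap1 (0.18), and Dnajb5, Dnajc11 and Dnajc1 lost their calls. This follows from its construction, since the AM genes fell. The median of members was -0.0288 with no filter, -0.0277 with the DESeq2 Wald test and -0.0030 with at least 10 counts in every library. Leaving Dnajc6 out of the members, a choice made after seeing the data, gave 12 members higher, 4 of them DnaJ genes, and a median of -0.0225. A 1.5-fold limit left 7 members higher and 3 lower. Leaving out each library gave 10 to 13 members higher and 13 to 19 lower (Hsp genes 7 and 5 throughout, DnaJ genes 3 to 6 and 8 to 14, lowest without the first control library), against 23.4% to 26.7% and 20.1% to 23.7% of all genes, 28 to 34 list genes higher and 17 to 24 lower, and medians of -0.0389 to -0.0151. Hspa1a was between -0.1862 and 0.0015 when a library was left out, highest without the first control library, and, summed with Hspa1b, at 0.15, and the cause was not tested. The replicate numbers do not pair the libraries (correlation of same-numbered deviations -0.003). With a replicate block 13 members were higher and 16 lower (20.6% and 25.4%, against 28.2% and 24% of all genes). The DESeq2 Wald test called 12 and 14, against 13.5% and 11.6% of all genes.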
